A study of Mus musculus with 1931 samples.

Results

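The VE-like cells of RtL-embryoids (Rosette-to-Lumen stage embryoids, aggregates assembled from mouse ESC lines in 3D co-culture) were compared with iXEN cells (induced extraembryonic endoderm cells) made from the same kind of ESC in a 2D dish. The wells in columns 9 to 16 of plates 3, 4 and 5 were taken as the 3D VE-like cells, and the iXEN cells were the wells of plate 9. A cell was kept with at least 2500 genes above 0 TPM, which left 82.2% of the 3D wells and 77.5% of the iXEN wells. Of the 1406 cells kept from 1931 wells in all, 22.4% were 3D VE-like cells and 10.03% were iXEN cells. RNA was measured by SMART-Seq2, a full-length protocol with a library for each sorted cell. Both groups came from iGATA6 ESCs, which carry mCherry and a lentiviral pCW57.1_Gata6 construct that expresses Gata6 under doxycycline (DOX). In 3D, these cells were grown in agarose microwells with 5-Factor ESCs and Kermit ESCs, whose GFP reports Oct3/4, in reconstructed embryo medium with FCS. RtL-embryoids were picked by hand, pooled, dissociated and stained for CD40, and mCherry+ cells without GFP and CD40 were sorted. In 2D, the iGATA6-mCherry ESCs were grown alone on gelatin in XEN medium, and cells were sorted by mCherry without CD40 staining. Both received 2 µg/ml DOX over the same days and none on the last day. Each side was 1 pool of cells, so plates 3, 4 and 5 are technical splits, cells are not replicates, and no test of the difference can be made. Culture form, neighbouring cells, medium, plate and library batch differed together, so that their parts in a difference cannot be told apart. The sources used here do not say whether the ESCs of both groups were 1 clone.

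The visceral endoderm (VE) is the epithelium that surrounds the epiblast and the extraembryonic ectoderm of the early mouse embryo. It takes up maternal proteins through the receptors cubilin and megalin, secretes carriers such as transthyretin and apolipoproteins, and at its distal and anterior side releases antagonists of Nodal and Wnt. XEN cells are the cultured counterpart of the primitive endoderm, from which visceral and parietal endoderm arise, and GATA6 is a transcription factor that directs ESCs to this lineage. DOX induction of Gata6 was shared by both groups, and the TPM values do not separate transgenic from endogenous Gata6 RNA.

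Expressed genes per cell stand in for depth, since TPM keep no read number. The 3D VE-like cells had medians of 6622, 4913 and 4957 expressed genes on plates 3, 4 and 5, against 8699 in iXEN, and a low gene is missed more often in a shallower cell. Means were therefore also taken over cells of 6000 to 8000 expressed genes, which were 33.3% of the 3D cells (88.6% of them on plate 3) and 22.7% of the iXEN cells (32 cells). Each cell was rescaled to a sum of 10000 (TP10k, transcripts per 10000). A log2 ratio is that of the mean in 3D over the mean in iXEN after adding 0.05 TP10k to both, and understates the change of low genes.

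**Figure D1:**
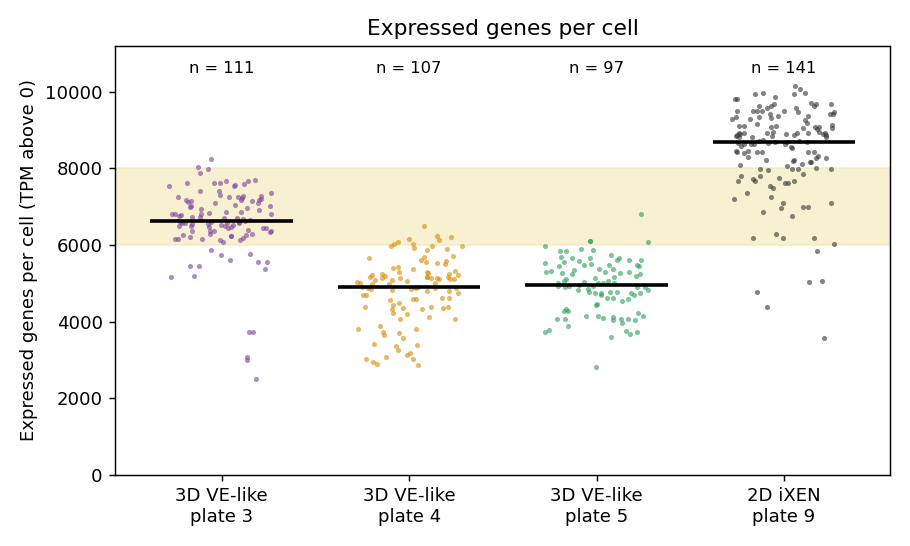
Expressed genes (TPM above 0) in each kept cell of the 3D VE-like wells by plate and of 2D iXEN. Points are cells, black lines are medians and the band marks 6000 to 8000 genes, where plate 3 and the shallower iXEN cells overlap.

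The labels held against marker genes. All 10 VE markers were found in at least 10% of cells of both groups, and their summed level had a median of 24.8 TP10k in 3D VE-like cells (5th to 95th percentile 13.1 to 38.9) and 32.7 in iXEN (17.5 to 50.5). The 8 epiblast (Epi) markers summed to a median of 7.33 TP10k in 3D and 3.21 in iXEN, and in both groups 5 of them, Nanog, Gdf3, Tdgf1, Sox2 and Fgf4, had means under 0.1. The 8 extraembryonic ectoderm (ExE) markers had medians of 0.136 and 0.541, and the 8 fibroblast markers were at 0 in the median cell of both. In 13 3D cells (4.13%) the Epi markers exceeded the VE markers, and in no iXEN cell. All genes called below kept a ratio of at least 2 over all cells without these 13.

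Of 8403 genes tested, 54.03% had a ratio above 1, the share to set beside the counts by sign in the lists below. The median log2 ratio was 0.043. A difference of less than 2-fold between the means of the 2 groups was found for 7958 (94.7%) of the genes tested. A ratio of 2 or more over all cells was reached by 2.05% of these genes in the direction of 3D and by 3.25% in the direction of iXEN. A gene was called where the ratio was at least 2 over all cells, in the cells of 6000 to 8000 expressed genes, and for each of the 3 plates against all iXEN cells. This held for 70 genes (0.833%) with higher and for 1.71% of genes with lower means in 3D VE-like cells. Between plates 3 and 4, 3 and 5, and 4 and 5 of the 3D pool itself, 1.07%, 1.43% and 1.71% of the same genes differed by 2-fold or more. These plate shares join both directions under a single ratio, so they stand beside the 2.05% and 3.25% over all cells and not beside the calls. The largest mean among the genes called higher was 70.8 TP10k (Dppa5a), and among those called lower 65.8 TP10k in iXEN (Actg1). Of the called genes, 26 higher and 60 lower ones reached a mean of 1 TP10k, beside 2380 of all 8403 genes tested. Most called genes, like most tested genes, were thus under this level. The genes nearest the threshold were Fxyd4 (smallest of the 5 log2 ratios 1.01) inside and 1810013D15Rik (0.9996) outside among higher genes, and Pim3 (1.001) and Slc4a11 (0.998) among lower ones.

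**Figure D2:**
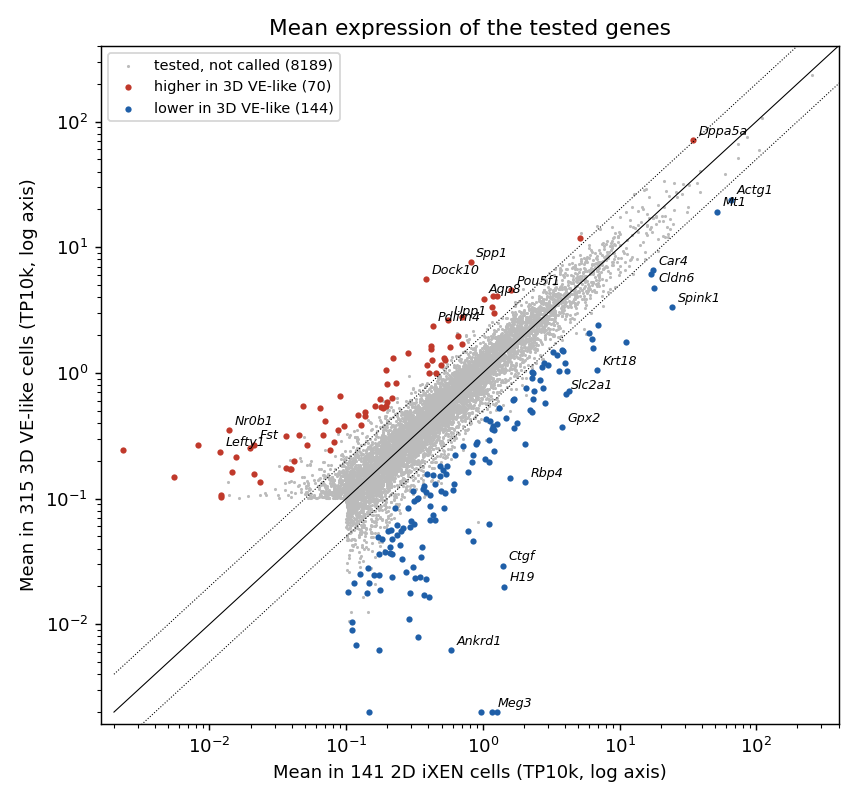
Mean expression of each tested gene in 3D VE-like cells (vertical) against 2D iXEN cells (horizontal), both in TP10k on log axes. Red and blue points are the genes called higher and lower, the solid line marks equal means, dotted lines mark 2-fold, and means under 0.002 are drawn at 0.002.

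Endoderm identity genes were alike in level. None of the 8 tested endoderm transcription factors was called, with a median log2 ratio of 0.14 beside 0.043 over all genes. Gata6 had means of 0.763, 0.707 and 1 TP10k on plates 3, 4 and 5 and 0.621 in iXEN, a log2 ratio of 0.37. It was found in 89.8% of 3D cells and 97.9% of iXEN cells. Gata4, its partner in the lineage, was at 2.9 TP10k in 3D and 2.58 in iXEN. Sox17 and Foxa2, both definers of endoderm, leaned to iXEN with 1.7 against 2.71 and 0.41 against 0.661 TP10k, without reaching 2-fold, and in the depth window their log2 ratios were -0.0036 and -0.34.

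The receptors by which VE takes up protein differed little as well. None of 10 tested members of the endocytic list was called (median log2 ratio -0.18). Cubn, which encodes cubilin, was at 3.37 TP10k in 3D and 3.89 in iXEN, its partner Amn at 5.03 and 6.97, and Lrp2, which encodes megalin, at 1.74 and 1.88. Lrpap1, the chaperone of this receptor family, was at 33.8 and 21.3 TP10k, and the adaptor Dab2 at 8.07 and 13.4. Scarb1, the HDL receptor, stood at 0.332 TP10k in 3D and 0.738 in iXEN, past 2-fold over all cells but not on every plate or in the depth window.

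Several secreted carriers of the endoderm were lower in 3D. Of 18 genes of the apolipoprotein and carrier list, 11 were tested. All 11 had lower means in 3D VE-like cells (median log2 ratio -1.31, and -1.48 in the depth window). Called lower were 5, beside 1.71% over all genes. The list median was -1.94, -1.46 and -0.98 on plates 3, 4 and 5. Apoa1 and Apob, not called, were lower mainly on plate 3, with log2 ratios of -2.33, -0.0051 and -0.087 and of -2.51, -0.45 and 0.33. Ttr (transthyretin, carrier of thyroid hormone and of retinol-binding protein) had means of 0.125, 0.353 and 0.351 TP10k on the 3 plates and 2.04 in iXEN. It was found in 9.84% of 3D cells (95% exact binomial interval 6.79 to 13.7%, counting error only) and 51.8% of iXEN cells (43.2 to 60.3%). Rbp4, the plasma carrier of retinol, was at 0.17, 0.0588 and 0.178 TP10k against 2.03, a log2 ratio of -3.49. Both were patchy in each group. Of 30 3D cells with Rbp4, 13 also had Ttr, and of 76 iXEN cells with Rbp4, 60 did. Apom, an HDL carrier of sphingosine phosphate, was at 0.401 against 1.76 TP10k, Apoc2, the activator of lipoprotein lipase, at 0.363 against 1.68, and Trf, the iron carrier transferrin, at 0.0247 against 0.173. Of the called carriers, Ttr, Rbp4, Apoc2 and Trf were found in 9.84%, 9.52%, 6.98% and 2.86% of 3D cells, under the 10% needed. They were tested only through iXEN, and so was Apoa2, by its mean. Alb, which encodes albumin, stayed just under the level needed for testing, with means of 0.0938 TP10k in 3D and 0.00461 in iXEN. Its log2 ratio was 2.53 on plate 3 and -0.13 on plates 4 and 5, so the higher 3D mean came from plate 3. Apoe was abundant in both, with 51.6 and 73.9 TP10k, and was not called. Afp, the classical serum protein of the VE, was near 0 in both, at 0.00506 and 0.00745 TP10k. Spink1, a secreted trypsin inhibitor outside the list, was the most abundant of the 15 genes named for the largest decreases. Its means were 3.32, 3.75 and 2.87 TP10k on the plates and 24.2 in iXEN, with medians of 1.21 and 18.6 and ranges from 0 to 50.8 and from 0 to 92.6 over cells. The ranges overlapped, but 97.8% of 3D cells lay below the iXEN median.

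Among secreted proteins that were higher in 3D, Spp1 (osteopontin, an extracellular phosphoprotein) reached 6.37, 7.69 and 8.83 TP10k on plates 3, 4 and 5 against 0.813 in iXEN, a log2 ratio of 3.14 (4.57 in the depth window). Its median was 2.91 TP10k in 3D and 0 in iXEN, and it was found in 72.4% and 47.5% of cells. Timp1, an inhibitor of metalloproteinases, was at 1.98 against 0.656 TP10k. Timp2, of the same family and chosen after its values were seen, went the other way, at 0.0408 against 0.358. P4ha2, a subunit of collagen prolyl hydroxylase, was at 4, 4.18 and 4.09 TP10k on the plates and 1.19 in iXEN, while P4ha1, the paralogous subunit, was at 1.93 and 2.84 and was not called. The matrix genes that make the basement membrane differed less. Of 14 tested genes of that list only Fst was called, and Sparc, Col4a1, Lama1 and Lamc1 stood at 59.9, 16.1, 3.17 and 9.22 TP10k in 3D and at 105.7, 19.4, 3.21 and 6.32 in iXEN.

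Genes of the distal and anterior VE were low in both groups, and 2 of the 7 tested, Lefty1 and Sfrp1, were called higher in 3D (median log2 ratio of the list 0.58, and 1.15 in the depth window). Over all genes 0.833% were called higher. Lefty1 and Sfrp1 reached the mean of 0.1 TP10k needed for testing only in 3D, so they could be called in no other direction. Lefty1 (chr1:180935022-180938400, GRCm38 with Gencode vM21 as for all gene positions here) encodes a secreted inhibitor of Nodal. Its means were 0.332, 0.116 and 0.262 TP10k on plates 3, 4 and 5 and 0.0119 in iXEN, and it was found in 47 3D cells (14.9%, interval 11.2 to 19.3%) and 10 iXEN cells (7.09%, interval 3.45 to 12.7%). The share was higher in the shallower group, and the highest 10% of 3D cells held 95.3% of the summed level. Leaving out the lowest and highest 10% of cells brought its log2 ratio from 2.21 to 0.39 and that of Lefty2 from 2.49 to 0.030, so that both calls rest on few cells. Its neighbour Lefty2 (chr1:180893108-180899103, the same strand), chosen after its values were seen, was at 0.288, 0.13 and 0.319 TP10k against 0.00232, in 34 and 8 cells. Lefty1 and Lefty2 were found together in 18 3D cells and 1 iXEN cell. Nodal itself was at 0.096 and 0.0359 TP10k, under the level needed for testing, and 28 of the 47 3D cells with Lefty1 also had Nodal. Sfrp1, a Wnt antagonist, was at 0.106 against 0.0121 TP10k. Fst, which encodes the activin-binding protein follistatin, was at 0.318, 0.207 and 0.278 TP10k against 0.0213. Hhex, a homeobox gene of the anterior VE, was at 0.307 and 0.12 TP10k, past 2-fold over all cells (log2 ratio 1.07) but not called, and Dkk1, a Wnt antagonist, at 0.653 and 0.419. The other tested genes of the list were Eomes at 0.0834 against 0.112, Sfrp5 at 0.0872 against 0.106 and Cyp26a1 at 0.713 against 0.674 TP10k. Cer1, Otx2 and Gsc, further genes of this region, had means under 0.01 TP10k in both groups.

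In the FGF pathway, the ligand Fgf3 was called higher at 0.711, 0.659 and 0.488 TP10k against 0.176, and Spry2, a feedback inhibitor of receptor tyrosine kinases, at 1.26, 1.33 and 2.38 against 0.414. Fgfr3, a receptor, was called lower at 0.182 against 0.489 TP10k. The list as a whole had a median log2 ratio of -0.071 over 9 tested genes, and among other targets of ERK, Etv5 stood at 0.174 against 0.436, Dusp4 at 0.242 against 0.476 and Etv4 at 0.313 against 0.268 TP10k, none of them called.

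Some pluripotency genes were higher in the 3D VE-like cells. Of 10 tested genes of that list, 9 had a ratio above 1, with a median log2 ratio of 0.44, and 2 were called. Pou5f1, which encodes OCT4, the central factor of pluripotency, had means of 4.79, 4.6 and 4.15 TP10k on the plates and 1.6 in iXEN, with medians of 4.09 and 1.04 TP10k. It was found in 90.8% of 3D cells (87.05 to 93.7%) and 80.9% of iXEN cells (73.4 to 86.99%), and 81.3% of 3D cells lay above the iXEN median. Without the 13 cells of high Epi markers its mean was 4.33 TP10k and its log2 ratio 1.40, beside 1.47 with them. Dppa5a, an RNA-binding protein of pluripotent cells, was the most abundant called gene, at 71.3, 70.3 and 70.8 TP10k against 34.7, with medians of 70.4 and 32.6 and quartiles of 51.6 to 90.2 and 18.9 to 47.4. The interquartile ranges did not overlap. Its log2 ratio of 1.03 fell to 0.91 where the group means were rescaled to a median ratio of 1. Nr0b1, a nuclear receptor of ESCs chosen after its values were seen, was in 33.97% of 3D cells at a mean of 0.349 TP10k and in 5.67% of iXEN cells at 0.0139. Zfp42, Utf1 and Fbxo15, further genes of ESCs, differed little, with 1.4, 1.69 and 1.15 TP10k in 3D and 1.02, 1.35 and 1.09 in iXEN. Nanog, Sox2 and Tdgf1 had means of 0.0845, 0.0229 and 0.0324 TP10k in 3D and 0.0372, 0.00499 and 0.00509 in iXEN. The 3D cells of columns 1 to 8, which were Epi-like by the same markers, had a Pou5f1 mean of 14.2 TP10k and a Nanog mean of 3.83.

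Some keratins and claudins, genes of the epithelial cytoskeleton and tight junction, were lower in 3D. Of 3 tested keratins, Krt8 and Krt18, which pair in simple epithelia, were called, and Krt19 was not, at 0.137 against 0.414 TP10k. Krt18 was at 1.04, 1.12 and 0.978 TP10k on the plates and 6.83 in iXEN, was found in 60% of 3D cells and 100% of iXEN cells, and had medians of 0.325 and 5.51. Krt8 was at 2.12, 2.16 and 1.91 TP10k against 5.99. In the depth window the log2 ratios were -2.72 and -1.50. On each plate the ratio of Krt18 was further from 1 than that of Krt8. Of 11 tested junction genes, 2 claudins of the tight junction were called lower. Cldn6 was at 5.6, 4.56 and 4.05 TP10k against 17.7, with quartiles of 1.02 to 7.39 and 12.2 to 22.8, and Cldn7 at 1.77, 1.54 and 1.45 against 6.38. Cldn4 was not called, at 0.0582 against 0.106 TP10k, and Cldn3 was under the level needed for testing, at 0.0261 against 0.00913. The adhesion genes Cdh1 and Epcam stood at 0.666 and 0.718 TP10k in 3D and 0.671 and 0.885 in iXEN and were not called. The median log2 ratio of the junction list was -0.69. Gjb5, a connexin of the gap junction, was called higher at 1.14, 1.08 and 0.893 TP10k on the plates against 0.195, in 67.3% and 42.6% of cells.

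Part of the list of actin cytoskeleton genes and targets of SRF and YAP, which are transcription regulators that respond to actin and to cell shape, was lower in 3D. Of 13 tested, 6 were called lower and none higher, beside 1.71% called lower over all genes, with a median log2 ratio of -1.25. In the depth window the median was -0.39, so the list as a whole moved less at like depth than its called genes did. Actg1, one of the cytoplasmic actins, had means of 26.4, 22.98 and 21.8 TP10k on the plates and 65.8 in iXEN and quartiles of 15.4 to 31.4 and 44.9 to 78.5 over cells, which do not overlap. Actb, the other cytoplasmic actin, stood at 107.8 and 110.3 TP10k. Ctgf, a matricellular target of YAP, was at 0.0506, 0.029 and 0.00497 TP10k against 1.41, and was found in 8.25% of 3D cells and 60.3% of iXEN cells. Ankrd1, another YAP target, was in 4 3D cells (1.27%) and 77 iXEN cells (54.6%), at means of 0.00618 and 0.589 TP10k. Ctgf and Ankrd1 reached the mean of 0.1 TP10k needed for testing only in iXEN, so they could be called in no other direction. Cyr61, close to Ctgf in function, was at 0.665 against 2.06 TP10k over all cells (log2 ratio -1.56) but at -0.39 in the depth window, and was not called. The actin-binding genes Tagln2, Cnn2 and Flna were at 2.4, 0.194 and 0.523 TP10k in 3D and 6.97, 1.11 and 1.32 in iXEN. Tpm1 and Myl12a, which encode a tropomyosin and a myosin light chain, were not called, at 1.36 and 4.09 against 1.2 and 5.14 TP10k. Actr2 and Pdlim4, actin genes outside the list that are described further on, were called higher.

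The promoters of these genes are shown because SRF binds a known DNA motif, the CArG box, 10 bases that begin with CC, end with GG and hold only A and T between them, the same pattern on both strands. RefSeq windows (GRCm38.p6) of the 250 bases before the start were at hand for 5 of the 6 called genes, all but Ctgf. Exact matches were found for Actg1, starting 90 bases before the RefSeq start, and for Cnn2, starting 56 bases before it. The windows of Flna and Ankrd1, and most of that of Tagln2, lie within the Gencode gene, so nothing is read from them. Of 32851 windows of the same length, 1.47% hold a match. The list was drawn up to hold targets of SRF and only its called members were looked at, so this share gives no measure of enrichment. The 2 matching windows are given 5′ to 3′ up to the earlier start of the RefSeq and Gencode models, with the match in capitals; a match describes the letters and not a bound site.
Actg1, chr11:120348543-120348745, minus strand: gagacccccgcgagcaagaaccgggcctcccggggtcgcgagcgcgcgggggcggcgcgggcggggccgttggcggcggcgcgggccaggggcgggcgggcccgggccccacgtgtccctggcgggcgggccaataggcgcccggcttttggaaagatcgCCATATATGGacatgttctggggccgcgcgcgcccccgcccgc
Cnn2, chr10:79988350-79988583, plus strand: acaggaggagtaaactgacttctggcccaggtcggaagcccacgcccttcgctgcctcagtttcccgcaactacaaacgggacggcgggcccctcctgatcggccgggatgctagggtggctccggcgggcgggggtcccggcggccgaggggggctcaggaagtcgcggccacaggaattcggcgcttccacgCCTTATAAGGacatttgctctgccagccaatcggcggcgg

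The lowest ratios of all were in imprinted genes, which are expressed from 1 parental allele, and in a miRNA feature that lies within one of them. Of 8 tested, 4 were called lower and none higher, beside 1.71% called lower over all genes. All 4 reached the mean of 0.1 TP10k needed for testing only in iXEN, so they could be called in no other direction. Meg3, a maternally expressed long non-coding RNA (chr12:109541001-109571726), was found in 9 3D cells (2.86%, interval 1.31 to 5.35%) and 46 iXEN cells (32.6%, interval 24.97 to 41.02%). By plate it was in 6.31%, 0.935% and 1.03% of 3D cells, and in the depth window in 6.67% of 3D and 34.4% of iXEN cells. Its means were 0.000883, 0.000183 and 0.000106 TP10k on the plates and 1.18 in iXEN. The 3D cells of the other well columns, 1 to 8 and 17 to 24, from the same RtL-embryoids, had Meg3 means of 1.79 and 2.38 TP10k, so a level near 0 was not shared by these cells. By the sort design, Epi-like cells came from Kermit ESCs and ExE-like cells from 5-Factor ESCs. ESC line and cell type therefore differ together here and cannot be told apart. Dlk1, the paternally expressed neighbour on the same strand (chr12:109452823-109463336), was in 5.4% of 3D and 35.5% of iXEN cells, at 0.0179 and 0.102 TP10k. H19 (chr7:142575529-142578143), maternally expressed on another chromosome, was in 5 and 72 cells, at 0.0141, 0.0243 and 0.0215 TP10k on the plates and 1.43 in iXEN. Its paternally expressed neighbour Igf2 was at 0.687 and 0.462 TP10k and was not called. Sgce, paternally expressed, was called at 0.0841 against 0.516 TP10k. Peg3 was at 0.547 against 1.31, and Phlda2 at 0.379 against 0.13, neither called. The log2 ratios of Phlda2 were 0.087, 2.43 and -0.79 on plates 3, 4 and 5 and 0.29 in the depth window, so the plates did not go one way. In iXEN, 28 of the 46 cells with Meg3 also had H19, and in 3D none of the 9 did.

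The feature Mir1906-1 was listed at 0 in all 3D VE-like cells, which allows a share of up to 0.952% of cells with a detected read at this depth and does not limit the share of cells that express it, and was found in 20 iXEN cells (14.2%) at a mean of 1.28 TP10k. It is no independent gene here: its hairpin (chr12:109544541-109544620) lies within an annotated exon of Meg3, and all 20 iXEN cells with it had Meg3. Mir1906-2, on the X chromosome, carries the same mature sequence and was listed in 19 of the same 20 cells at 0.977 TP10k, and in no 3D cell. Reads of Meg3 can be split among all 3, so these values are uncertain as measures of the miRNA, and SMART-Seq2 does not capture mature miRNAs. The mature miR-1906 of both (RefSeq, GRCm38.p6, chr12:109544588-109544609 plus strand and chrX:88759485-88759506 minus strand) is shown for that identity, with its seed, bases 2 to 8, in capitals.
miR-1906: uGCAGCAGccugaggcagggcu

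Genes of the Y chromosome were chosen after their values were seen. Eif2s3y was in 2.86% of 3D VE-like cells at 0.0166 TP10k and in 51.8% of iXEN cells at 0.406, and Ddx3y in 2.54% and 43.97%. In the depth window Eif2s3y was in 6.67% and 56.2% of cells. The means of genes on the X chromosome gave a median log2 ratio of -0.0093 (genes with a mean of at least 0.5 TP10k), and the medians of the autosomes lay between 0.012 and 0.17. Whether the ESCs of the 2 experiments differed in their Y chromosome was not tested.

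Zinc and redox genes also leaned to iXEN. The metallothioneins Mt1 and Mt2, which bind zinc and copper, were at 22.9, 22.6 and 11.4 and 6.54, 7.31 and 4.5 TP10k on plates 3, 4 and 5, against 51.7 and 17.1 in iXEN, and plate 5 was the lowest for both. Slc39a4, a zinc importer, was lower at 0.757 against 2.08 TP10k, and Slc39a1, another zinc transporter, higher at 3.17, 3.5 and 5.84 on the plates against 1.26. Of 18 tested genes of oxidative defence, 16 had a ratio below 1 (median log2 ratio -0.46), and the peroxidase Gpx3 and the glutathione reductase Gsr were called, at 1.51 and 1.02 against 3.85 and 2.29 TP10k. Gpx2, a further glutathione peroxidase, was at 0.458, 0.322 and 0.319 TP10k on the plates and 3.79 in iXEN, in 29.5% and 87.9% of cells. The abundant Sod1 and Prdx2 were alike, at 17.01 and 10.4 against 17.6 and 9.23 TP10k.

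Transport, metabolism and inhibitors of the cell cycle had few called genes. Slc2a1, the basal glucose transporter, was called lower at 0.728, 0.759 and 0.523 TP10k against 4.05, with medians of 0.377 and 2.97. It was the only called gene of 15 tested glycolysis genes, of which 12 had a ratio below 1 (median log2 ratio -0.38). Slc2a3, another glucose transporter, was at 9.29 against 19.2 TP10k, past 2-fold over all cells and in the depth window but not on plate 5, and Gapdh, Aldoa and Ldha stood at 40.2, 21.1 and 15.3 TP10k in 3D and 38.5, 21.3 and 24.5 in iXEN. Water channels went opposite ways: Aqp8 was higher at 4.12, 3.63 and 3.9 TP10k against 1.01, in 85.7% and 51.1% of cells, and Aqp3 was lower at 0.0332 against 0.256. Car4, a carbonic anhydrase of the cell surface, was lower at 5.89, 6.69 and 7.22 TP10k against 17.7, while the cytosolic Car2 was at 4.53 and 2.34 and was not called. Of the inhibitors of cyclin-dependent kinases, Cdkn1a, a target of p53, was lower at 0.874 against 2.63 TP10k, and Cdkn1b was higher at 0.242 against 0.0761. The other 9 tested genes of the list of p53 targets and these inhibitors were not called, and 9 of all 11 had a ratio below 1 (median log2 ratio -0.60, and -0.70 in the depth window).

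Proliferation, respiration and protein folding differed little. No gene was called among 14 tested S phase genes, 15 G2 and M phase genes, 22 nuclear genes of oxidative phosphorylation, 15 ER chaperones, 12 nucleolar and translation genes, 11 heat shock genes, 16 lysosomal genes and 7 integrins. The medians of these lists lay between -0.21 (lysosome) and 0.19 (integrins). None of 5 tested BMP genes was called, but their median log2 ratio was 0.37 over all cells and 1.01 in the depth window, where Id1 and Id3, targets of BMP, had 1.25 and 1.66, and Bmper, a secreted modulator of BMP, had 1.01 (0.11, 0.74 and 1.11 over all cells). On plates 3, 4 and 5, Id1 had log2 ratios of 0.39, 0.23 and -0.51 and Id3 had 0.99, 0.94 and 0.039, so plate 5 did not share the rise. Id2, of the same family, went the other way, with -0.94 in the depth window and -1.28 over all cells. Ccnb1, Pcna and Mki67, markers of cycling cells, were at 7.08, 2.74 and 0.474 TP10k in 3D and 6.9, 2.83 and 0.388 in iXEN. No gene of cholesterol synthesis was called either, though 13 of 18 had a ratio above 1, beside 54.03% of all genes tested. The median log2 ratio of this list was 0.46 over all cells and fell to 0.21 in the depth window. Its largest ratio over all cells was that of Msmo1, at 3.05 against 1.64 TP10k. Among the remaining lists, Nupr1 was the only called gene of 15 tested targets of ATF4, Bst2, a restriction factor induced by interferon, was called lower of 6 interferon genes at 1.85 against 6.24 TP10k, Ier3 was called lower of 9 immediate early genes at 0.0228 against 0.385, and P4ha2 was the only called gene of 11 hypoxia genes.

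**Figure D3:**
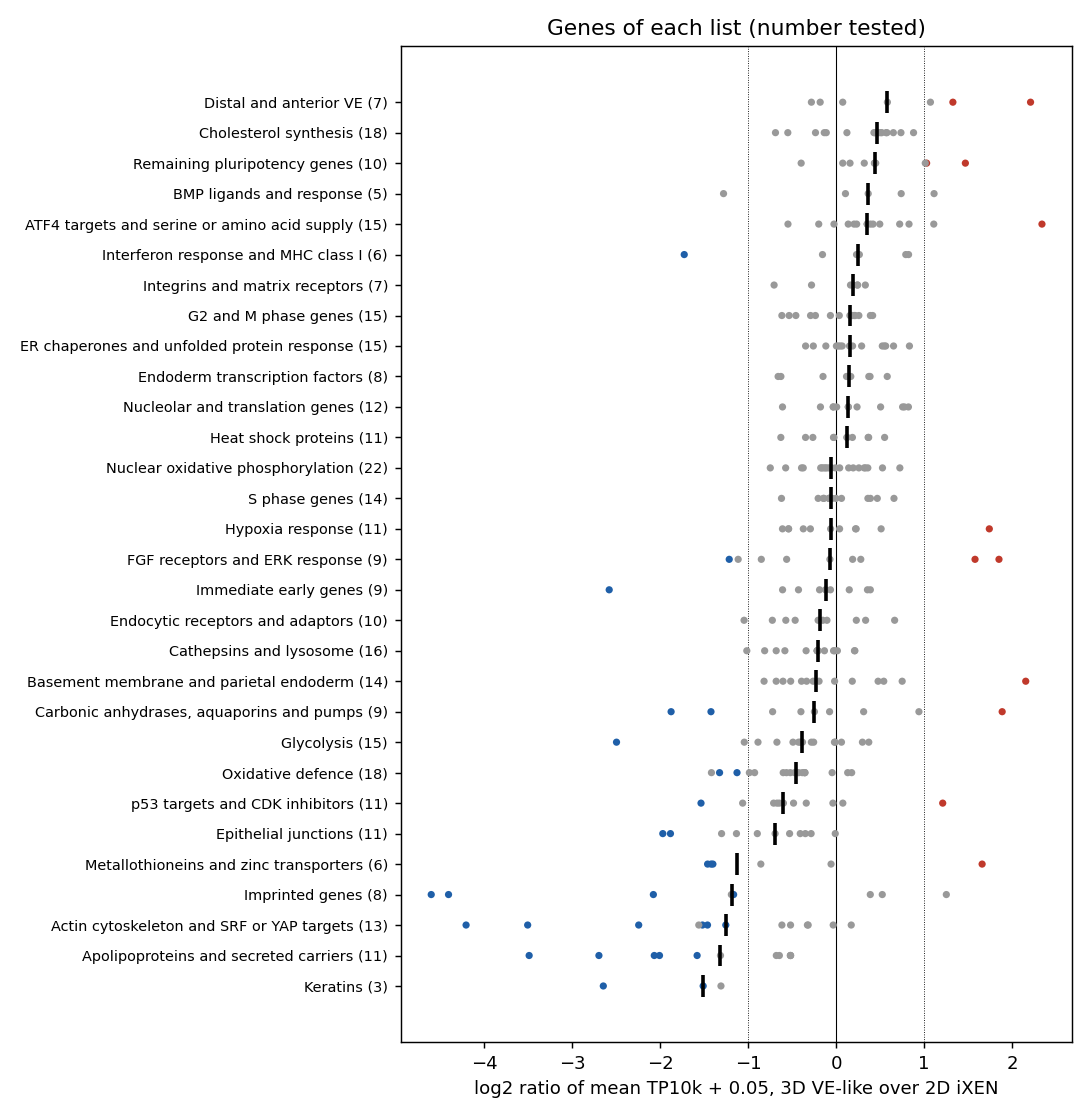
log2 ratio of the mean in 3D VE-like cells over 2D iXEN for the tested genes of each list (points), with the list's median as a black bar and the number of tested genes in brackets. Red points were called higher, blue points lower and grey points not called, and dotted lines mark 2-fold. Keratins, carriers, actin genes, imprinted genes and metallothioneins have medians below -1, from -1.51 to -1.13.

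The largest ratio in favour of 3D was in Dock10, an exchange factor of small GTPases, at 4.55, 3.17 and 9.39 TP10k on plates 3, 4 and 5 against 0.384 in iXEN (log2 ratio 3.69). It was found in 95.2% and 92.2% of cells, so it differed by level and not by the number of cells with it, with medians of 4.65 and 0.27 TP10k. Plate 5 stood above the other plates for Dock10, and likewise for Slc39a1, Spry2 and Actr2, a subunit of the Arp complex that branches actin (2.58, 2.8 and 4.85 against 1.18 TP10k). Nupr1, a chromatin protein induced by stress, was at 1.01, 1.39 and 1.58 TP10k against 0.22. Pdlim4, a PDZ and LIM domain protein that binds actin, was at 2.41, 2.56 and 2.09 against 0.43, in 79.05% and 51.1% of cells. Upp1, a uridine phosphorylase, was at 2.31, 2.94 and 2.61 against 0.558 TP10k, Pga5, a pepsinogen, at 1.45 against 0.285, and Ly6e, a GPI-anchored surface protein, at 1.55 against 0.415. Among lower genes, Bex1, a small adaptor protein, was at 2.33, 1.7 and 1.18 TP10k on the plates and 11.2 in iXEN, and was found in every iXEN cell and in 65.1% of 3D cells. Pdpn, the surface mucin podoplanin, was at 0.784, 0.803 and 0.545 against 4.25 TP10k. Anxa3, an annexin, was in 4.44% of 3D and 49.6% of iXEN cells at 0.0623 and 1.1 TP10k, and Got1l1 in 7.3% and 87.9% at 0.147 and 1.58.

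**Figure D4:**
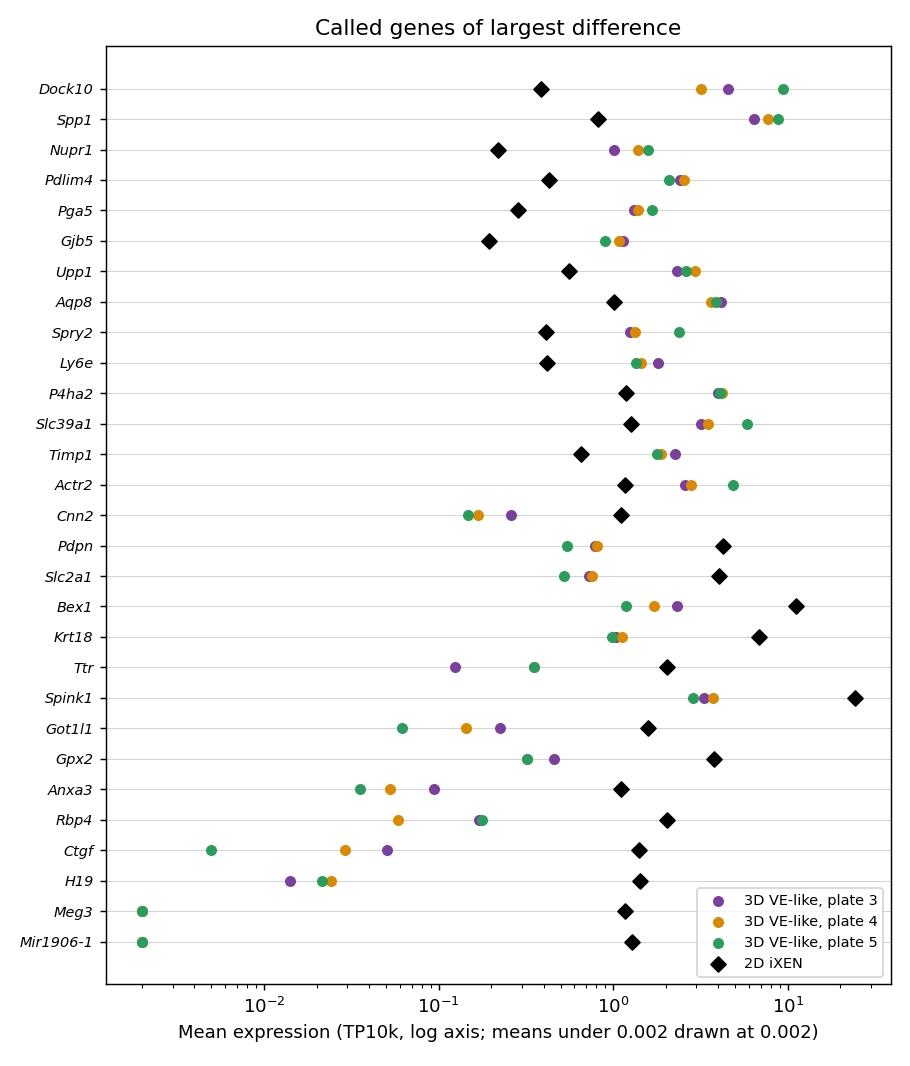
Mean expression (TP10k, log axis) of genes from the 15 called ones with the largest ratio in each direction and a mean of at least 1 TP10k in the higher group. Circles are the 3D VE-like cells of plates 3, 4 and 5 and diamonds are 2D iXEN, and for every gene drawn all 3 plates lie on one side of iXEN.

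The same ratios were taken in the other 2 pairs of 3D and 2D cells. The 3D cells of columns 1 to 8 (Epi-like by markers, 22.3% of the 1406 cells) were set against ESCs in 2i/LIF (10.1%). Those of columns 17 to 24 (25.1%) were set against iTSC (10.03%). In 59 cells of columns 17 to 24, neither the Epi nor the ExE marker sum exceeded the VE marker sum. ESCs received no DOX. The 3D cells of all pairs share pool and plates but came from different ESC lines, and the 2D cultures differ in medium and line. Of the 8403 genes, 4.81% were 2-fold higher and 2.83% lower in the Epi-like pair, and 6.16% and 3.75% in the ExE-like pair. Of the 70 genes called higher in VE-like cells, 14 (20%) were 2-fold higher in the Epi-like pair and 18 (25.7%) in the ExE-like pair, and 7 in both: Dock10, Nupr1, Spry2, Marcks, Arl4a, Cdkn1b and Ftl2-ps. Dock10 had log2 ratios of 2.90 and 3.99 there, Nupr1 1.83 and 3.40, and Spry2 2.34 and 2.40. Of the genes called lower, 31 (21.5%) and 47 (32.6%) were 2-fold lower in the other pairs, and 17 in both, among them Gadd45b, Aqp3, Bex1 and Fmr1nb. Bex1 had log2 ratios of -1.29 and -1.04.

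The other called genes, 45 (64.3%) of the higher and 83 (57.6%) of the lower ones, reached 2-fold the same way in neither other pair. They included Pou5f1, Dppa5a, Pdlim4, Ly6e and Timp1 among the higher genes and Meg3, Ttr, Rbp4, Spink1, Krt18, Krt8, Cldn6, Cldn7, Mt1 and Pdpn among the lower ones. Spink1 had log2 ratios of 0.019 and 3.59 in the other pairs and Rbp4 -0.45 and 2.58. In 16.7% of the cells of the ExE-like wells, neither the Epi nor the ExE sum exceeded the VE sum, whatever its level. Over all cells of these wells, the VE sum had a median of 0.469 and a 95th percentile of 8.31 TP10k. The part of cells with VE markers in the high values of Spink1, Rbp4 and Ttr in that pair was not tested. H19 was lower in the VE-like and ExE-like pairs, with log2 ratios of -4.41 and -9.57, and at -0.30 in the Epi-like pair. Gjb5, Upp1 and Ly6g6e, which were higher in 3D VE-like cells, were 2-fold lower in 3D in both other pairs, and Trf and Selenop, which were lower in 3D VE-like cells, were 2-fold higher in both. Trf had means of 0.261 and 0.389 TP10k in the 3D cells of the other pairs, 0.0247 in 3D VE-like cells and 0.173 in iXEN. Differences between the pairs have no test, since each group is 1 sample.

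**Figure D5:**
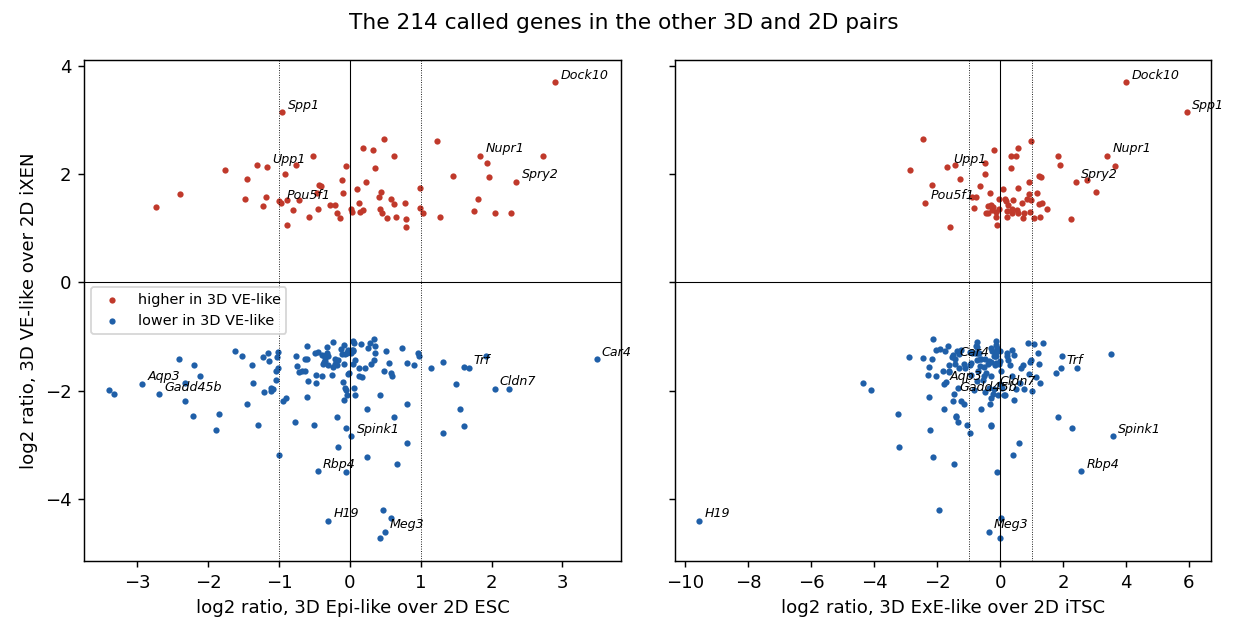
log2 ratio of the called genes in 3D VE-like cells over iXEN (vertical) against their ratio in Epi-like cells over ESC (left) and ExE-like cells over iTSC (right). Red genes were called higher and blue genes lower in VE-like cells, dotted lines mark 2-fold in the other pair, and the vertical axis has no gene near 0 because of the call.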

How the data were processed

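Members and gene lists were chosen with earlier results of these data known. The authors sorted single cells into plates, made SMART-Seq2 libraries, which do not keep the strand, pseudoaligned reads to GRCm38 transcripts of a Gencode release with kallisto, filtered the TPM for mitochondrial, ribosomal and pseudogenes (some annotated pseudogenes, such as Ptges3-ps, are still in the table), and deposited TPM per gene (bcl2fastq 2.20, kallisto and Seurat are in the submitters' processing notes). The table holds 20999 genes and 1931 wells, and every column was mapped. Reads per cell are not in the table, so the study's minimum of aligned reads was not applied here and no depth is known. kallisto shares reads among similar transcripts, so levels of Mt1 and Mt2, of Actb and Actg1 and of nested or copied features are uncertain.

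Each kept cell (at least 2500 genes above 0 TPM) was scaled to a sum of 10000, since the deposited sums of kept cells ran from 108692 to 760177 TPM. A gene was tested if found in at least 10% of cells and at a mean of at least 0.1 TP10k in either group (8403 genes). A gene could thus pass through the group in which it was high, and then be called only in that direction. In the group of lower level, 20 of the genes called higher and 44 of those called lower had means under 0.05 TP10k. Calls need a ratio of at least 2 of (mean + 0.05 TP10k) over all cells, in cells of 6000 to 8000 expressed genes, and on each 3D plate. With 1 sample a side there is no p-value. No doublet caller was run, as wells were sorted as single cells, and no 2 profiles were identical. Shares of cells carry exact (Clopper-Pearson) 95% intervals, which cover counting error only, and a share of 0 allows 3 cells of the total.

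Genes were named by rule: the 15 called genes of largest ratio in each direction with a mean of at least 1 TP10k, members of 34 gene lists that were called or are most abundant in a described list, the VE and fibroblast markers and Gata6. Others are said to be chosen after their values were seen, also Fxyd4, Pim3, the genes named in the other pairs, and neighbours beyond these lists. Epi and ExE markers, VE markers and well columns were used as in the report. A list is described by its counts and median. Some genes that the rule names are not reported here. Gene positions come from Gencode vM21 and sequences from RefSeq tables of GRCm38.p6. Most large counts are printed as percentages of the 1406 cells kept or the 8403 genes tested. The 18 alternatives tried are in the closing section. Python 3, pandas, scipy and matplotlib were used.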

Additional observations from a re-analysis of the deposited data

Results flagged for a closer look

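Upp1, Ly6g6e, Trf and Selenop drew attention because all 3 plates went one way against iXEN in VE-like cells and at least 2-fold the other way in both other pairs of 3D and 2D cells. The difference between pairs was not tested, since each group is 1 sample. Upp1 and Ly6g6e had log2 ratios of 2.13 and 2.08 in VE-like cells over iXEN. In Epi-like cells over ESC the ratios were -1.18 and -1.76, and in ExE-like cells over iTSC -1.67 and -2.87. Trf and Selenop had -1.58 and -1.37 in VE-like cells, 1.67 and 1.92 in the Epi-like pair, and 1.94 and 1.97 in the ExE-like pair. Ly6g6e, Trf and Selenop were low genes, with means of 0.314, 0.0247 and 0.181 TP10k in 3D VE-like cells and 0.0361, 0.173 and 0.546 TP10k in iXEN.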

How the results depend on the processing

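No paired analysis was possible because each side is 1 sample and the labels give the groups no shared replicate numbers. Calls are given here as a percentage of the 8403 genes tested, 0.833% higher and 1.71% lower in 3D VE-like cells. They became 0.167% and 0.452% with a pseudocount of 0.5 TP10k, 0.309% and 0.714% with a mean of at least 1 TP10k (fewer genes tested), 3.19% and 4.96% at a fold of 1.5, and 0.238% and 0.583% at a fold of 3. With means of ln(TP10k + 1) 0.547% were called higher, and without the lowest and highest 10% of cells 0.536% higher and 3.59% lower. The cause was not tested for the pseudocount, the ln means and the trimmed means. The other settings gave 0.643 to 1.23% higher and 1.67 to 2.48% lower. Leaving out plate 3, 4 or 5 gave 0.928 to 1.02% and 2.01 to 2.13%, and kept 85.7 to 98.6% of the higher and 93.1 to 99.3% of the lower calls. Fewer of the higher calls were kept with trimmed means (57.1%), in cells of 6000 to 8000 expressed genes alone (64.3%), with ln means (65.7%) and with rescaled group means (77.1%), and 86.1%, 76.4%, 92.4% and 100% of the lower ones. Higher genes made up 32.7% of calls, but 24.4%, 20.7% and 12.97% with group means rescaled to a median ratio of 1, with ln means and with trimmed means. Rescaling moved the median log2 ratio of all genes from 0.043 to -0.063, and trimming to -0.23. Over these settings, no called gene named here and no list with a median beyond 0.5 changed sign. Of 89 called genes followed, 32 fell under 2-fold with a pseudocount of 0.5 and 7 with trimmed means. The median of the actin list went from -1.25 to -0.39 with only cells of 6000 to 8000 expressed genes, and that of the distal and anterior VE list from 0.58 to 0.34 without plate 3. Plates 4 and 5 supplied 8 and 4 3D cells to that depth window.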
